A study of Mus musculus with 8 samples.

Results

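The 10 genes described here encode proteins that the endoderm of the yolk sac makes and secretes: Afp, Ttr, Apoa1, Apoa2, Apoa4, Apob, Apom, Rbp4, Fgb and Fgg. They were taken as a fixed list of symbols, and every array probe whose RefSeq accession belongs to one of them was used. This gave 12 of the 55681 probes on the array, and 10 of the 20145 gene symbols it covers, with 1 probe per gene except Apoa2 and Apob, which had 2 each. The 4 hydroxyurea samples were whole CD-1 mouse embryos on gestational day 9 whose dams had received 400 mg/kg of hydroxyurea into the peritoneum, and the 4 saline samples were CD-1 embryos of the same day whose dams had received saline. All embryos were explanted 3 h after the injection, and total RNA was measured on 1-colour Agilent arrays. CD-1 is an outbred stock, so embryos differ in genotype. The labels call the tissue whole embryo, speak of 4 independent experiments, and do not say whether embryos were pooled, which samples shared an experiment or how much of the membranes was taken along. The p-values below therefore measure the spread between samples.

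The yolk sac surrounds the embryo, and its outer layer, the visceral endoderm, does for the early embryo much of what the liver does later. Its cells take up maternal protein at an apical brush border, package lipid into lipoproteins and release carrier proteins toward the embryo. Hydroxyurea blocks ribonucleotide reductase and so the supply of deoxyribonucleotides for DNA synthesis. The liver bud of the embryo also comes to express several of the same genes. The label was checked against other markers of visceral endoderm: Cubn, Amn and Hnf4a were measured on all 8 arrays and followed the 10 genes, Dab2 followed them less closely, and Lrp2 did not.

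The RefSeq sequences upstream of the starts of the 10 genes (GRCm38.p6) are described first. Whether they bear on the array values that follow was not tested. A window of 250 bases before the start of transcription was given for 9 of the 10 genes, Ttr being named only. Each window was searched on both strands for 4 short motifs. TATAAA, the letters of a TATA box, was found in Afp, Apoa2, Apob and Rbp4, against 12.4% of 32851 such windows over all genes. These are matches of letters anywhere in the window, at the distances given below, and their function was not tested. AAAGTCC, from the site of HNF4, was found in Apoa2 (3.58% of all windows), TGTTTAC, from the site of the FOXA factors, in Apoa2 and Rbp4 (3.17%), and AGATAA, from the site of GATA factors, in none of the 9 (9.99%). The shares over all genes are per window, while the members are counted per gene, and Apoa2 and Rbp4 had a further window each. No 2 matches overlapped. The windows below are those with the TATA matches nearest the start, with the matched letters in capitals. The Apoa2 match, 212 bases before its start, is not shown.
Afp, chr5:90490464-90490713, plus strand: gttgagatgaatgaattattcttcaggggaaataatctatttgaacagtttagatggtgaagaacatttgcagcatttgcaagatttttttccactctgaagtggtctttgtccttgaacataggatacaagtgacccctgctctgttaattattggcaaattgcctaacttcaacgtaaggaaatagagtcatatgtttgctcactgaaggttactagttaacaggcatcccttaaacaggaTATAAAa
Apob, chr12:7977427-7977676, plus strand: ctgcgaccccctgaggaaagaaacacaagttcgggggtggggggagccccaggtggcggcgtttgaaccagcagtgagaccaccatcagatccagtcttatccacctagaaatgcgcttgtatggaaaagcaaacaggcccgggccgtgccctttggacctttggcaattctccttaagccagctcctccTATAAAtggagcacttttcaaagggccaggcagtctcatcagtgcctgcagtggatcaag
Rbp4, chr19:38124812-38125061, minus strand: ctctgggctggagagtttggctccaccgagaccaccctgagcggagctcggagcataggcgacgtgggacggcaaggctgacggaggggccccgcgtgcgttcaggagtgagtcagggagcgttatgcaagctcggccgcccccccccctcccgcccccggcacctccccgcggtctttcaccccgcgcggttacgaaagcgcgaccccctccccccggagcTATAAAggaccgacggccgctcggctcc
The TATA match of Afp began 7 bases before the start, that of Apob 60 and that of Rbp4 28 bases before it. Rbp4 and Apoa2 each have a second annotated start, and the Rbp4 window shown is that of the downstream one. Apoa1, Apoa4, Apom, Fgb and Fgg held none of the 4 motifs in these windows. By gene order, Apoa1 and Apoa4 lie on chromosome 9 with Apoc3 between them, Fgb and Fgg on chromosome 3 on either side of Fga, and Afp on chromosome 5 next to Alb.

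All values that follow are log2 signals minus the 75th percentile of the same array, so 0 is the level of a fairly bright probe. They can be compared between arrays for 1 gene, but not between genes, since probes differ in response. Afp, the gene of alpha-fetoprotein, the main serum protein of the fetus, gave 5.41, 4.54, 3.11 and 4.28 on the arrays hydroxyurea 1 to 4, against 3.28, 6.79, 4.28 and 5.10 on saline 1 to 4. The highest and the lowest array differed 12.8-fold, and the range of the hydroxyurea arrays lay almost wholly within that of the saline arrays. Ttr encodes transthyretin, which carries thyroid hormone and binds the retinol carrier. It gave 2.82, 1.46, -0.21 and 0.98 in hydroxyurea embryos, against 0.30, 4.78, 1.97 and 2.14 in saline embryos. Rbp4, the gene of that retinol carrier, gave 4.97, 3.86, 2.57 and 3.34 with hydroxyurea and 2.80, 6.55, 4.29 and 4.19 with saline. Both carriers were highest on saline 2, were low on saline 1 and hydroxyurea 3, and overlapped between the groups.

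The apolipoproteins of high density lipoprotein were also all highest on saline 2. Apoa1, which encodes the main protein of that particle, gave 0.45, -0.46, -3.66 and -1.76 in hydroxyurea embryos, against -2.20, 2.27, -0.60 and -0.48 in saline embryos. Its range over the 8 arrays was 60.8-fold, where its signal on hydroxyurea 3, the low end, was not well above background. Apoa2, its companion in the particle, gave 3.53, 3.06, 2.40 and 2.10 with hydroxyurea and 2.81, 5.19, 2.95 and 3.28 with saline, a range of 8.50-fold that is narrower than those of Afp and both carriers. Apom, whose product carries sphingosine-1-phosphate, gave 1.94, 1.12, -3.05 and 0.57 in hydroxyurea embryos, against -0.90, 4.46, 0.59 and 1.15 in saline embryos. Apom had the widest range of the 10 genes, 182-fold between saline 2 and hydroxyurea 3. Apoa4, an apolipoprotein of lipid export, gave -2.42, -2.58, -5.74 and -4.14 with hydroxyurea and -3.88, 0.03, -1.70 and -2.50 with saline, and was also not well above background on hydroxyurea 3.

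Apob encodes the structural protein around which lipoproteins are assembled. It gave -0.49, -0.84, -3.40 and -1.89 in hydroxyurea embryos, against -2.30, 1.84, -0.79 and 0.40 in saline embryos, a range of 37.6-fold. Fgb and Fgg encode the beta and gamma chains of fibrinogen, the clotting protein. Fgb gave 0.79, -0.01, -0.22 and -0.09 with hydroxyurea and -0.59, 2.29, 0.12 and 0.10 with saline, the narrowest range of the list at 7.34-fold. Fgg gave 0.63, -0.62, -1.47 and -0.99 in hydroxyurea embryos, against -1.73, 2.22, -0.53 and -0.03 in saline embryos. For both fibrinogen genes the lowest of all arrays was saline 1, and for Apoa2 it was hydroxyurea 4. The other 7 genes were lowest on hydroxyurea 3.

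**Figure D1:**
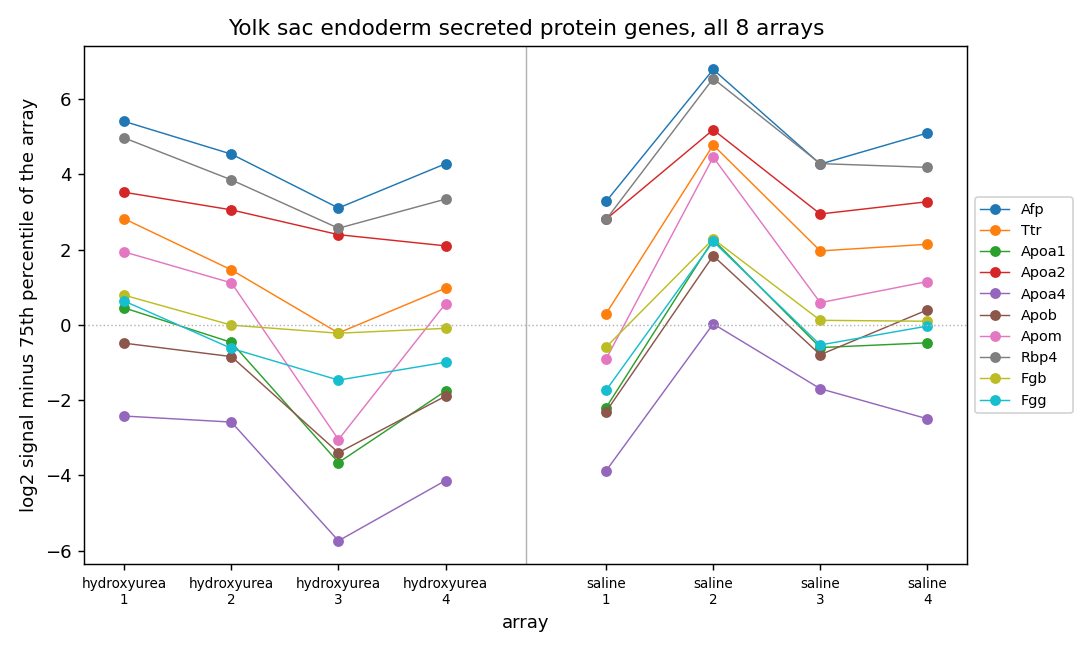
The log2 signal of each of the 10 genes minus the 75th percentile of its array (vertical axis) is plotted for the 4 hydroxyurea arrays, left, and the 4 saline arrays, right. Lines join the values of 1 gene within a group and imply no order. All 10 genes peak on saline 2, and 7 of the 10 are lowest on hydroxyurea 3.

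The arrays thus kept nearly the same order for every gene. All 10 genes were highest on saline 2, and among the saline arrays all 10 were lowest on saline 1. Among the hydroxyurea arrays all 10 were highest on hydroxyurea 1 and 9 were lowest on hydroxyurea 3. Averaged over the 10 genes, each centred on its own mean, the arrays hydroxyurea 1 to 4 stood at 0.79, -0.02, -1.94 and -0.73, and saline 1 to 4 at -1.21, 2.67, 0.08 and 0.36. The difference between saline 2 and hydroxyurea 3 was 4.61 on the log2 scale. Saline 2 and saline 1, of 1 group and 1 slide, differed from 5.20-fold (Apoa2) to 41.2-fold (Apom), and hydroxyurea 1 exceeded hydroxyurea 3 from 2.01-fold (Fgb) to 31.7-fold (Apom). In RNA of whole embryos, a larger amount of a tissue and more RNA per cell cannot be told apart.

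This spread within groups was wide beside that of other transcripts. The residual SD of the 10 genes, after the group means were removed, lay between 0.90 (Apoa2) and 2.23 (Apom) with a median of 1.44, against a median of 0.29 over the 23173 genes and unnamed features tested. Each of the 10 ranked between the 96.4th and the 99.9th percentile of all features. Afp stood at 1.25, Ttr at 1.58, Rbp4 at 1.31, Apoa1 at 1.82, Apob at 1.55, Apoa4 at 1.59, Fgb at 0.94 and Fgg at 1.33. These ranks are a description and were not tested.

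**Figure D2:**
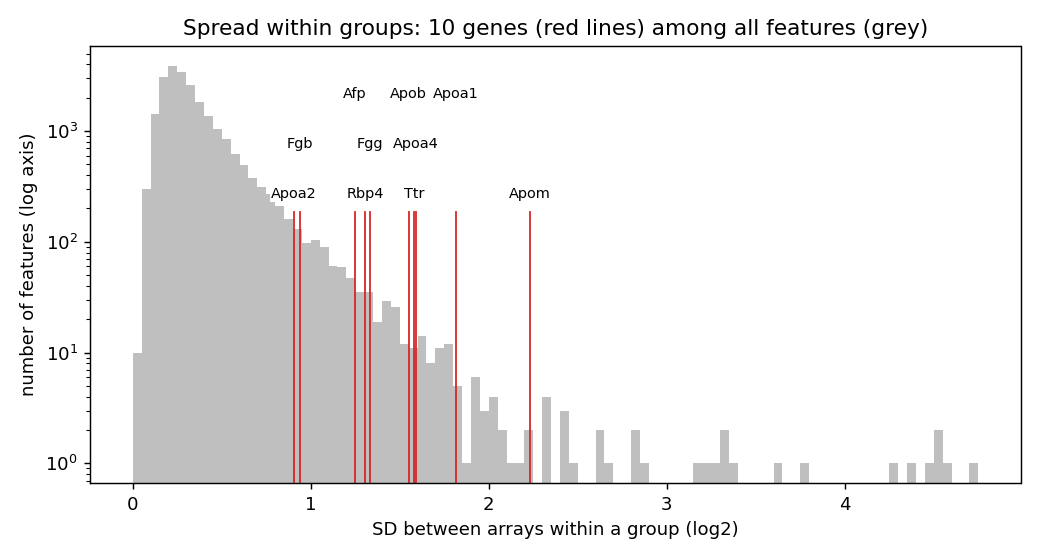
The histogram counts all 23173 features (logarithmic vertical axis) by their SD between arrays within a group, in log2 units, and red lines mark the 10 genes. The 10 lie in the right tail, from 0.90 for Apoa2 to 2.23 for Apom, where the median of all features is 0.29.

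The comparison of treatments asked whether hydroxyurea changed these transcripts within 3 h. By limma 0 of the 10 genes were called at the adjusted threshold of 0.05, in either direction, while 6.15% of all features were called, 2.76% higher and 3.39% lower in hydroxyurea embryos. At an unadjusted p of 0.05 the count was also 0 of 10, against 24.8% of all features. The groups overlapped for all 10 genes, where 15.5% of all features had groups that did not overlap. The estimates were all below 0, with a median of -0.91 against 0.04 over all features, and none exceeded its error enough to be called. Apoa4 had the largest, -1.71 ± 0.91 (SE, n = 4 per group, limma adjusted p = 0.276), a 95% confidence interval of 0.0740-fold to 1.26-fold. Apob followed at -1.44 ± 0.89 (limma adjusted p = 0.347), and its group means were -1.65 ± 1.31 in hydroxyurea and -0.21 ± 1.76 in saline embryos (SD, n = 4 each). Apom stood at -1.18 ± 1.27 (limma adjusted p = 0.606), with the widest interval, 0.0609-fold to 3.19-fold. The size and order of the estimates depended on the background correction. With normexp, Apoa4 stood at -0.75, Apom at -0.78 and Apoa1 at -0.73, and Apob had the largest estimate, -0.95. Afp (-0.55), Apoa2 (-0.90) and Rbp4 (-0.79) then lay slightly further below 0, and 0 members were called.

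Apoa1 averaged -1.36 ± 1.78 in hydroxyurea and -0.25 ± 1.85 in saline embryos (SD, n = 4 each), a difference of -1.11 (SE 1.04, limma adjusted p = 0.547). Ttr averaged 1.26 ± 1.26 with hydroxyurea and 2.30 ± 1.85 with saline, a difference of -1.04 (SE 0.90, limma adjusted p = 0.514). For Apoa2 the difference was -0.78 (SE 0.53, limma adjusted p = 0.387), for Rbp4 -0.77 (SE 0.75, 0.562) and for Fgg -0.59 (SE 0.76, 0.673). Afp averaged 4.34 ± 0.95 in hydroxyurea and 4.86 ± 1.48 in saline embryos, and its difference of -0.53 (SE 0.72, limma adjusted p = 0.689) had a 95% interval of 0.227-fold to 2.12-fold. Fgb had the smallest estimate, -0.36 (SE 0.55, limma adjusted p = 0.727). Every interval included 1-fold, and its lower bound lay between 0.0609-fold and 0.332-fold, so falls of that size are not shown to be absent.

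Single arrays moved these estimates. Without saline 2, Afp stood at 0.12, Fgb at 0.24 and Fgg at 0.15, all above 0, while Rbp4 stood at -0.08, Apom at -0.14, Ttr at -0.21, Apoa2 at -0.24, Apoa1 at -0.27, Apob at -0.76 and Apoa4 at -1.03. Without hydroxyurea 3, all 10 stayed below 0, with Apom at -0.12, Afp at -0.12, Apob at -0.86 and Apoa4 at -1.04. Without saline 1, the lowest saline array, they lay further below 0, with Afp at -1.05, Rbp4 at -1.32, Ttr at -1.70 and Apoa4 at -2.33, and 0 were called (lowest limma adjusted p = 0.181). Without both saline 2 and hydroxyurea 3, the highest and the lowest array, 7 of the 10 estimates were above 0, with Apom at 0.93, Afp at 0.52 and Apoa1 at 0.50, and Apoa2 (-0.12), Apob (-0.17) and Apoa4 (-0.36) were below it. Leaving out both arrays was chosen after their values were seen. No member was called in any of these fits, while 2.89% of all features were called without saline 2 and 2.01% without both.

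**Figure D3:**
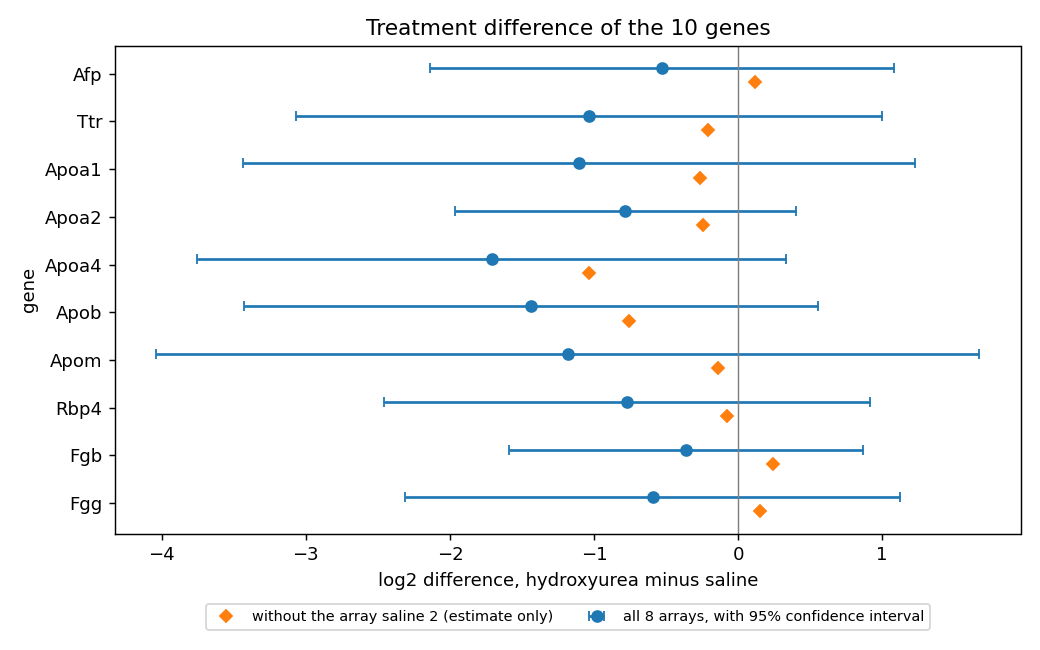
The log2 difference of hydroxyurea minus saline (horizontal axis) is shown for each gene with its 95% confidence interval from limma over all 8 arrays, and orange diamonds give the estimate without saline 2. All 10 intervals include 0, and without saline 2 the estimates of Afp, Fgb and Fgg lie above 0.

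The arrays came from 2 slides with 2 arrays of each group, slide 1 scanned at 3 µm and slide 2 at 5 µm. The mean difference of the 10 genes, hydroxyurea minus saline, was -0.34 on slide 1 and -1.56 on slide 2. Afp differed by -0.06 on slide 1 and by -0.99 on slide 2, Apoa1 by -0.04 and -2.17, Apob by -0.43 and -2.45, and Apom by -0.25 and -2.11. Fgb differed by -0.46 and -0.27. Slide 1 held saline 1 and saline 2, which stand at opposite ends of the saline values, and slide 2 held hydroxyurea 3. The interaction of treatment and slide called 0 of the 10 genes (lowest limma adjusted p = 1.0), 0 at an unadjusted p of 0.05, where 0% of all features were called and 0.949% had an unadjusted p under 0.05. With the slide as a block 0 of the 10 genes were called (lowest limma adjusted p = 0.259), against 4.6% of all features.

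The second probes of Apob and Apoa2 followed the first. The other Apob probe had a difference of -0.85 (SE 0.99, limma adjusted p = 0.640 over all probes), a range of 46.2-fold and a Pearson correlation of 0.95 with the first over the 8 arrays, and was not well above background on hydroxyurea 3, its low end. The other Apoa2 probe had a difference of -1.20 (SE 0.91, limma adjusted p = 0.450), a correlation of 0.93 and a range of 33.9-fold, wider than the 8.50-fold of the probe with the higher signal. None of the 12 probes was among the 1346 probes of the authors' deposited table.

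The 10 genes rose and fell together over the arrays. Each correlated with the mean of the other 9 at a Pearson r between 0.90 (Fgb) and 0.99 (Ttr), and the 45 pairs lay between 0.78 (Fgb with Apoa4) and 0.997 (Rbp4 with Ttr) with a median of 0.93. Without saline 2 and hydroxyurea 3, 6 arrays remained and r lay between 0.73 (Apoa2) and 0.98 (Ttr), and on deviations from the slide means it lay between 0.89 and 0.99. The 8 arrays share their scaling and the same extreme arrays, so these correlations describe the arrays and carry no p-value.

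Over all other features the median correlation with the mean of the 10 genes was 0.01, and 97 of 23163, 0.419%, reached 0.9. The 5 named genes most like the 10 over the 8 arrays were Slc2a2 (r = 0.99), Creb3l3 (0.99), Spp2 (0.99), Lgals2 (0.99) and Smlr1 (0.99). Smlr1 was well above background on only 5 of the 8 arrays, so its correlation rests in part on values near the floor. Slc2a2 encodes the glucose transporter GLUT2, Creb3l3 a membrane-bound transcription factor of liver and intestine, Spp2 a secreted phosphoprotein and Lgals2 a galectin. Slc2a2 gave -1.30, -2.49, -6.02 and -3.47 on hydroxyurea 1 to 4 and -4.88, 1.40, -2.52 and -2.01 on saline 1 to 4, a range of 172-fold whose low end, on hydroxyurea 3, was not well above background. Creb3l3 gave -0.84, -2.09, -3.82 and -2.32 in hydroxyurea embryos and -3.05, 0.99, -1.86 and -1.24 in saline embryos. Without saline 2 and hydroxyurea 3 the correlations of these 5 genes lay between 0.97 and 0.99. None of the 5 was called (limma adjusted p from 0.377 for Lgals2 to 0.574 for Slc2a2). They were picked on the same arrays for their likeness to 10 genes that were not called, so this is no separate result.

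Other genes of the same tissue were read from a list of 32 further proteins, mostly secreted, of yolk sac endoderm and fetal liver, of which 26 were measured. None was called (0 higher, 0 lower, 0 at an unadjusted p of 0.05, limma), with a median difference of -0.32. Of the 26, 11 correlated with the 10 genes at 0.9 or more, 4 had a correlation below 0, and 17 were highest on saline 2. Fga, the third fibrinogen chain gene, whose locus lies between Fgb and Fgg, ranged 47.3-fold (r = 0.98), with -2.80, -3.55, -6.05 and -5.10 on the hydroxyurea arrays and -4.56, -0.49, -3.28 and -3.34 on the saline arrays. Its signals on hydroxyurea 3 and 4 were not well above background. It had the lowest p of the list, with a difference of -1.46 (SE 0.92, limma adjusted p = 0.356). Plg, the gene of plasminogen, had r = 0.99, F2, of prothrombin, 0.98, Trf, of transferrin, 0.95 and Apoe 0.90. Without saline 2 the correlations of Plg, F2, Trf and Apoe were 0.98, 0.94, 0.89 and 0.75. Itih2, an inhibitor heavy chain gene that binds hyaluronan, had r = -0.78 and a difference of 0.31 (SE 0.21, limma adjusted p = 0.381). Alb, the albumin gene next to Afp and the main serum protein of the later liver, gave -4.37, -3.08, -1.58 and -3.30 with hydroxyurea and -3.71, -5.36, -3.33 and -3.23 with saline. It was lowest on saline 2 and highest on hydroxyurea 3 (r = -0.86), was well above background on 6 of 8 arrays, and its correlation without these 2 arrays was -0.28.

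Genes that assemble the lipoproteins formed the next list. Of 14 measured, 1 was called higher and 0 lower in hydroxyurea embryos, their median difference was -0.05, and 2 reached r = 0.9: Pla2g12b (0.95), needed for lipoprotein secretion, and Fabp2 (0.93), a fatty acid binding protein gene. Mttp, which loads lipid onto apolipoprotein B, had r = 0.84 and a range of 3.29-fold. Without saline 2 the correlation was 0.59 for Mttp, 0.89 for Pla2g12b and 0.85 for Fabp2. The called gene was Apobec1, the deaminase that edits the Apob transcript. Apobec1 gave -2.49, -2.64, -2.66 and -2.10 on hydroxyurea 1 to 4, against -4.18, -4.05, -4.55 and -3.71 on saline 1 to 4, groups that did not overlap. This gene was chosen by its p-value, and its difference was 1.65 (SE 0.21, n = 4 per group, limma adjusted p = 0.0033), a 3.15-fold higher signal. With the normexp background correction the difference was 0.72. Apobec1 was well above background on 4 hydroxyurea and 3 saline arrays, and the size of its difference depended on the background correction. Tm6sf2 (-1.52, limma adjusted p = 0.053) and Cideb (-1.45, 0.054), which act in lipid loading of lipoproteins and were singled out after their values were seen, had groups that did not overlap and missed the threshold. The list's count was 1 higher and 2 lower with normexp or with an intensity trend, 1 and 1 with median centring, and 0 and 2 among the 11 genes above background on all 8 arrays. The correlation of Apobec1 with the 10 genes was -0.29, where the median of the list was 0.54.

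Among receptors and surface proteins of the visceral endoderm, 0 of 18 measured genes were called by limma (3 at an unadjusted p of 0.05), with a median difference of 0.01. Cubn and Amn, whose products form the cubilin and amnionless receptor for protein uptake, had r = 0.97 and 0.98 and ranges of 35.0-fold and 16.8-fold. Slc2a2, Slc39a5 (0.96), a zinc transporter gene, and Folr1 (0.91), a folate receptor gene, were also above 0.9. Dab2, an adaptor of endocytosis, had r = 0.85. Without saline 2 the correlation was 0.58 for Dab2 and 0.76 for Folr1, against 0.91 for Slc39a5, 0.95 for Cubn and 0.96 for Amn. Lrp2, the megalin gene, which other epithelia of the embryo also express, had r = 0.26 and a range of 2.48-fold. Whether expression in other tissues bears on these correlations, here or in the lists below, was not tested. The lowest p-values of this list were those of Ttpa, a vitamin E transfer protein gene (0.75, limma adjusted p = 0.065), and Abcg5, a sterol transporter gene (0.72, limma adjusted p = 0.123).

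Of 17 measured endoderm transcription factors 0 were called by limma (4 at an unadjusted p of 0.05), with a median difference of -0.12. Hnf4a, a nuclear receptor known to act on apolipoprotein genes, had r = 0.97 and gave 0.16, -0.96, -1.59 and -1.22 with hydroxyurea, against -1.75, 2.07, -0.37 and -0.19 with saline, a range of 14.2-fold. It was the only one of the 17 at 0.9 or more. Gata6 had r = 0.82, while Foxa2 and Sox17, which the embryo's gut endoderm and vessels also express, had 0.05 and -0.37. Of the 17, 6 had a correlation below 0, among them Sox17 and Sox7 (-0.41). Without saline 2 the correlation of Hnf4a was 0.93 and that of Gata6 was 0.59. Cebpa (-0.94, limma adjusted p = 0.071) and Gata4 (-0.56, limma adjusted p = 0.107) had the lowest p-values.

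**Figure D4:**
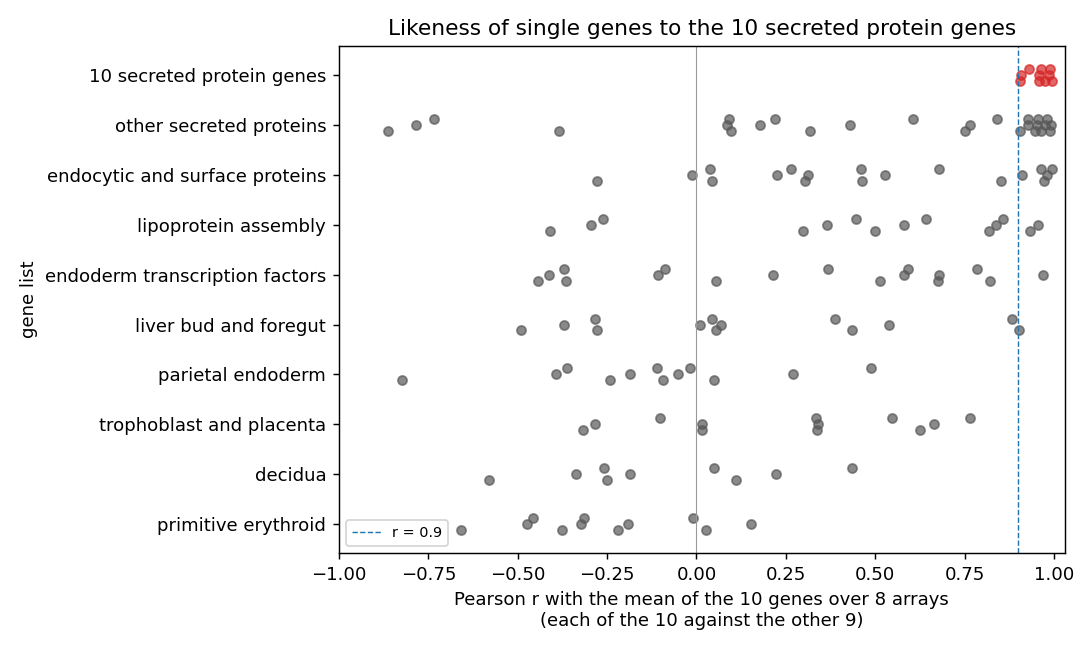
Each point is 1 gene, placed by its Pearson correlation over the 8 arrays with the mean of the 10 genes (horizontal axis), and rows are gene lists with the 10 genes on top. A dashed line marks 0.9, which 11 of 26 other secreted protein genes, 5 of 18 surface protein genes and 0 of 11 erythroid genes reach.

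Markers of other tissues that such samples could hold had mean deviations that spanned less over the arrays than the 4.61 of the 10 genes, while single genes among them varied widely. A list mean spans less where its genes do not move together, so a small span does not show that the amount of a tissue was constant. For 11 measured genes of primitive red cells, which arise in the yolk sac and circulate in the embryo, the mean deviation lay between -0.20 and 0.09 on the hydroxyurea arrays and between -0.21 and 0.33 on the saline arrays, and their median correlation with the 10 genes was -0.31. Hbb-y, an embryonic globin gene, ranged 1.79-fold. For 13 measured genes of liver bud and foregut the mean deviation lay between -0.29 and 0.00 with hydroxyurea and between -0.06 and 0.30 with saline, and the median correlation was 0.05. Hhex, a factor of the liver bud, had r = -0.28 and a range of 1.69-fold, and Prox1, another, 0.04, while Cldn6 (0.90) and Ihh (0.88), which the visceral endoderm also expresses, were higher. Without saline 2 the correlations of Cldn6 and Ihh were 0.78 and 0.70. For 12 parietal endoderm genes the means lay between -0.06 and 0.14 with hydroxyurea and between -0.09 and 0.02 with saline. No liver bud, decidua or erythroid gene was called by limma (2 in each list at an unadjusted p of 0.05). Among the lowest p-values were those of Sox2 (-0.51, limma adjusted p = 0.076) and Hhex (0.45, 0.132), Pgr, the progesterone receptor gene (1.35, 0.054), Alpl (0.87, 0.116) and Klf1 (-0.49, 0.116).

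Over all 8 arrays trophoblast genes followed the 10 genes in part, while decidua genes as a list did not. For 12 measured trophoblast and placenta genes the mean deviation lay between -0.23 and 0.38 on the hydroxyurea arrays. On the saline arrays it lay between -0.33 (saline 1) and 0.37 (saline 2), the arrays where the 10 genes were also lowest and highest. Their median correlation with the 10 genes was 0.34, 6 of the 12 were highest on saline 2, and 3 had a correlation below 0. Rhox6 (r = 0.77) and Rhox9 (0.66) had the highest correlations of the list, and none reached 0.9. Without saline 2 those of Rhox6 and Rhox9 were 0.31 and 0.27, and without both saline 2 and hydroxyurea 3 they were 0.79 and 0.54. Gcm1 went the other way, from -0.28 over all 8 arrays to 0.52 without saline 2. For 9 measured decidua genes the median correlation was -0.19, and 0 were highest on saline 2. Their mean deviation lay between -0.42 and 1.17 with hydroxyurea and between -0.71 and 0.12 with saline, a range of 1.88. That range came mostly from Prl8a2, a prolactin family gene of the decidua, which stood at 6.03 on hydroxyurea 3 and 2.40 on hydroxyurea 2 and was well above background on 5 of 8 arrays. It was the 1 gene of the 9 that was highest on hydroxyurea 3, and without it, an alternative added after its values were seen, the range was 0.64. Among the trophoblast genes, Prl3d1, a placental lactogen gene of giant cells, stood at 2.40 and 1.43 on hydroxyurea 2 and 3 and between -3.91 and -2.39 on the other arrays (79.1-fold), and Gcm1 ranged 19.6-fold. Tpbpa and Ctsq, defining markers of trophoblast, were not measured above background on enough arrays to be tested. Whether the amount of these tissues bears on the values of the 10 genes was not tested. In the trophoblast list 1 gene was called higher, Ascl2 (0.91, limma adjusted p = 0.030), and 2 lower, Hand1 (-1.42, limma adjusted p = 0.0083) and Synb (-1.55, limma adjusted p = 0.027). Hand1 is also a factor of heart and lateral mesoderm, and Ascl2 is a factor of trophoblast and other progenitors. The Synb probe used was well above background on 4 saline arrays but only 1 hydroxyurea array, so its hydroxyurea values lay near the floor. With normexp its difference was -0.36 (limma adjusted p = 0.281). The other Synb probe gave 1.50 in the opposite direction (limma adjusted p = 0.031 over all probes), so Synb, a syncytin gene, is uncertain. In the parietal list Fst, the gene of the activin antagonist follistatin, was higher (0.81, limma adjusted p = 0.037), but the call was kept under only 7 of 21 alternatives, and was lost without saline 2 (adjusted p = 0.077), with the slide as a block (0.055), with median centring and with no filter on dim probes. The calls of Ascl2 and Synb were also lost without saline 2 (adjusted p = 0.062 and 0.072), and those of Hand1 and Apobec1 were kept (0.029 and 0.012). On either slide alone neither Hand1 nor Apobec1 was called, and without both saline 2 and hydroxyurea 3 the call of Hand1 was lost.

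**Figure D5:**
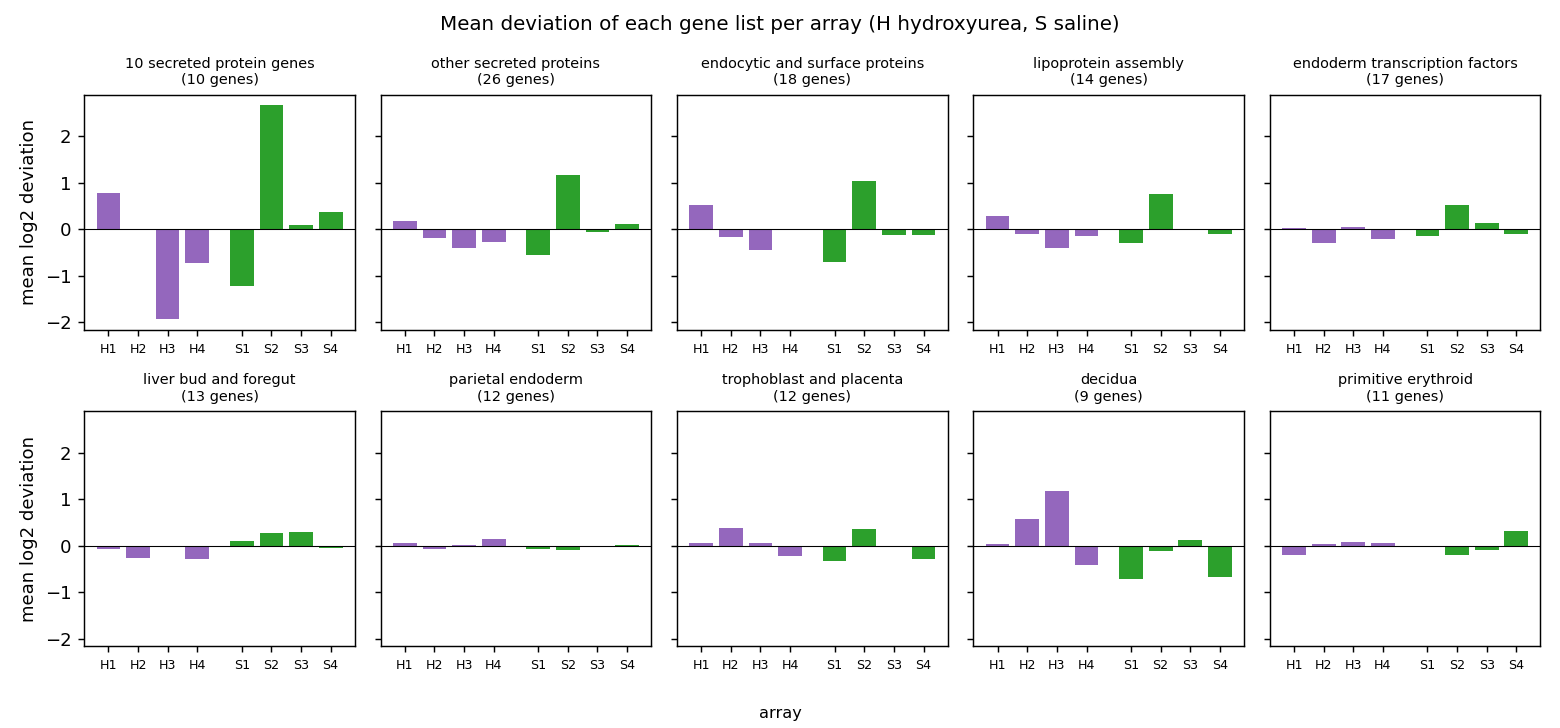
Bars give the mean log2 deviation of each gene list from its mean over the 8 arrays, for the 4 hydroxyurea arrays (purple, left) and the 4 saline arrays (green, right) in each panel. The 10 genes span 4.61 between saline 2 and hydroxyurea 3, while the 11 erythroid genes span 0.53 and the 12 parietal endoderm genes 0.23. A mean spans less where the genes of a list do not move together.

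Of the series as a whole, the following bears on these values. Each slide held 2 hydroxyurea and 2 saline arrays. Between 48.7% (hydroxyurea 3) and 62.3% (saline 1) of spots were well above background, and the 75th percentile of the signal lay between 249 (hydroxyurea 3) and 516 (saline 2). Hydroxyurea 3 and saline 2 are also the arrays with the lowest and the highest mean of the 10 genes. Over the 8 arrays the mean of the 10 genes correlated with the 75th percentile at r = 0.41 (rho = 0.29) and with the share of spots above background at r = 0.42 (rho = 0.24), and their part in the result was not tested. The treatment labels were checked with Ccng1, a p53 target, which gave 3.83 to 4.18 on the hydroxyurea arrays and 0.70 to 0.92 on the saline arrays. Saline 2, with 0.92, lay among the saline arrays there, and hydroxyurea 3, with 4.06, among the hydroxyurea arrays.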

How the data were processed

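Total RNA of 4 hydroxyurea and 4 saline samples was measured on 1-colour Cy3 arrays, grouped by the treatment label. The deposited scanner files hold intensity values made with Agilent Feature Extraction 11.5.1.1, per the submitters' processing notes and the file headers, with background subtracted and no scaling between arrays. The flags of Feature Extraction were used as deposited. The authors' deposited table holds log2 values of unstated normalization and served only to count overlap. Its sample columns had medians between -0.51 and 0.41, and its centring and scale are not stated.

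Each array had 59305 spots for 55681 probes, of which 151 to 315 outlier spots were left out and 0 were saturated. Spots of a probe were averaged as log2, and the 75th percentile of the array was subtracted. Probes well above background on at least 4 of 8 arrays (30759) were kept, and the probe of highest mean stood for its gene, giving 23173 features, 14658 of them named. RefSeq accessions gave 26582 probes a symbol (GRCm38.p6 table, used for names and gene order), and positions on the array were not used. The linear model of limma 3.58.1 under R 4.3.3 had treatment alone (eBayes, two-sided), Benjamini-Hochberg adjusted over all features, called under 0.05, and the steps were tested on simulated data. The scanner files used here have no mean signal, so normexp (offset 50) took the median signal. The number of arrays limits precision.

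Named were all 10 members, per list the 3 called genes of lowest p (or the 2 of lowest p), and the 5 named genes most like the members; genes named for their correlation or tissue role beyond this were chosen after their values were seen. A gene that the rule names is not reported here. The 10 members and all lists were chosen with earlier results of these data known. Replicate numbers follow accession order and pair nothing.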

Additional observations from a re-analysis of the deposited data

Results flagged for a closer look

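Of 92 checks of a group of 4 arrays, 1 found an array far from the other 3, where chance flags about 1 group in 20. Sox2, a factor of neural and foregut progenitors, stood at 1.99 on hydroxyurea 3, against 1.53, 1.55 and 1.57 on the other hydroxyurea arrays and 2.15 to 2.20 on the saline arrays. None of the 10 yolk sac genes met this criterion in either group.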

How the results depend on the processing

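No member was called under any of the 21 alternatives (lowest adjusted p = 0.181, without saline 1). Of 208 values of members under alternatives, 198 kept their sign and 10 turned, all with saline 2 left out. Leaving out 1 array at a time, Afp ranged from -1.05 to 0.12, Fgb from -0.72 to 0.24 and Fgg from -1.16 to 0.15. Without both saline 2 and hydroxyurea 3, an alternative added after the data were seen, 7 members turned: Afp (0.52), Ttr (0.28), Apoa1 (0.50), Apom (0.93), Rbp4 (0.30), Fgb (0.35) and Fgg (0.44). The 10 genes spanned 3.62 (normexp) to 4.74 (mean of probes) between arrays. Of all features 1426 were called, against 611 with no filter on dim probes, 56 on slide 1 alone, 3 on slide 2 alone, 465 without both arrays, and 523 (without hydroxyurea 4) to 3736 (without hydroxyurea 2) leaving out 1 array, with 670 without saline 2; the lower counts of the slides rest on fewer arrays, and the other causes were not tested. Every probe tested as it is gave 776 higher and 1321 lower, quantile normalization 941 and 897, against 640 and 786. Apoa1 and Apoa4 could not be tested among probes above background on all 8 arrays. Of 210 list medians 8 moved by over 1 SD and of 200 list counts 57 changed; over all alternatives the adjusted p of Apobec1 lay between 0.0013 and 0.224. No paired analysis was possible because the labels give no replicate numbers. On hydroxyurea 3 the signals of Apoa1, Apoa4, the other Apob probe, Fga, Slc2a2, Slc39a5, Plg, F2 and Lgals2 were too near background to be more than bounds.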
